A study of Arabidopsis thaliana with 24 samples.

Results

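A set of 26 of the 32548 genes measured in Arabidopsis thaliana had very low values in 20-day wild type seedlings and higher ones in 2 mutants of the NuB4 histone-handling genes. The genes were chosen from the 20-day values themselves: a mean below 5 normalized read values in the 3 wild type libraries and a mean of at least 20 both in the 3 msi2 msi3 libraries and over the 3 libraries labelled hag2 msi2 msi3. In all, 31 genes met these bounds; 5 of them (LTP12, ATA27, A7, GRP19 and TSM1) were among 10 named tapetum genes left out of the set. Since the 20-day values chose the genes, those values are described here without a test, and tests are given only for the 12-day seedlings, which played no part in the choice.

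The study addressed the separate and joint roles of the acetyltransferase module and the chaperone of NuB4, and total RNA of whole seedlings was sequenced from 24 libraries, 3 per group. At 20 days the groups were wild type Col-0, msi2 msi3 and hag2 msi2 msi3, all kept in a growth chamber and read from both ends over 150 bp. At 12 days they were wild type Col-0, the single mutant nasp, the triple mutants msi2 msi3 nasp and hag2 msi2 msi3, and the double mutant hag2 nasp, all on plates of Murashige and Skoog medium and read from one end over 50 bp. Every plant was kept at 22 °C with 16 h of light and 8 h of dark, and no other treatment was given in the labels. The labels do not say whether the libraries of a group came from separately grown plants, so each p-value measures only the spread between these samples. Genotype combinations differ between ages: hag2 msi2 msi3 and the wild type were sequenced at both, msi2 msi3 at 20 days alone, and every genotype with nasp at 12 days alone. Age, growth conditions, instrument, read length and any difference in sampled tissue cannot be told apart.

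HAG2 encodes a type B histone acetyltransferase, MSI2 and MSI3 encode histone-binding WD40 proteins, and NASP encodes a chaperone of histones H3 and H4; type B acetyltransferases mark newly made histone H4 before it is placed on DNA. Several of the 26 genes are known from the anther, where the tapetum, the innermost cell layer around the developing pollen, secretes enzymes, lipids and phenolic conjugates that build the pollen wall and coat, and then dies. Other genes of the set are known from roots or from brassinosteroid signalling, or have no described function.

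The mutated genes were read first as a check of the labels. At 20 days HAG2 stood at 14.2% of the wild type mean in the libraries labelled hag2 msi2 msi3, and MSI3 at 16.7% in the same libraries and 17.7% in msi2 msi3. MSI2 kept 46.2% of its wild type mean in msi2 msi3 but 82.1% in the libraries labelled hag2 msi2 msi3, and 92.9% in the 12-day libraries with that label. The msi2 part of that label is therefore not borne out by the transcript level, and every direction given for hag2 msi2 msi3 is for the libraries labelled so. Library totals of the normalized read values were 19.6 to 21 M (12 days) and 45.7 to 48.2 M (20 days); the read depth behind a value is unknown. Only the leaf part of the whole seedlings could be checked with 4 leaf genes, which together held 1.86 to 2.27 M of the values in each 20-day library. The 5 root marker genes summed to 15.1 to 30.6 in the 20-day wild type and 1504 to 1645 in the 12-day wild type. Roots in the 20-day samples are therefore not borne out by these genes, and the sampled tissue may differ between ages.

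Of the 11540 genes with a 20-day wild type mean below 5, msi2 msi3 reached a mean of 20 for 60 and hag2 msi2 msi3 for 47. The 31 genes that did both made up 51.7% of the first group and 66.0% of the second; both mutants were set against the same wild type libraries. The reverse pattern, a wild type mean of at least 20 with both mutants below 5, was met by 2 genes, AT2G01422 and GSTU3. All 26 genes are protein coding, as are 84.3% of the genes in the table. They lie on all 5 chromosomes, with 9, 2, 5, 4 and 6 genes on chromosomes 1 to 5.

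In the wild type, 9 of the 26 genes were listed at 0 in all 3 libraries: AT1G02813, PAP6, AT1G68875, SHT, AT2G28680, PUP6, AT5G13380, PHT1;6 and AT5G48210. The summed level of the 26 genes was 57.8, 35.1 and 45.6 in the wild type libraries, 1391, 1361 and 1317 in msi2 msi3, and 1183, 1154 and 1437 in hag2 msi2 msi3. The gap between the wild type and the mutants in these sums is fixed by the choice of genes. The ranges of both mutants overlap each other. In RNA of mixed cells, more cells that use a gene and more RNA per cell cannot be told apart. In msi2 msi3, 25 of the 26 genes lay above the wild type without overlap, where 13.7% of the 23707 genes that reached 1 in 3 or more libraries did so. In hag2 msi2 msi3 all 26 did, against 12.3% of those genes. The choice of genes fixes these counts, and nothing is read from them. AT5G66150 was the exception in msi2 msi3, where 1 library at 5.61 lay within the wild type range of 0.0658 to 10.1.

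**Figure D1:**
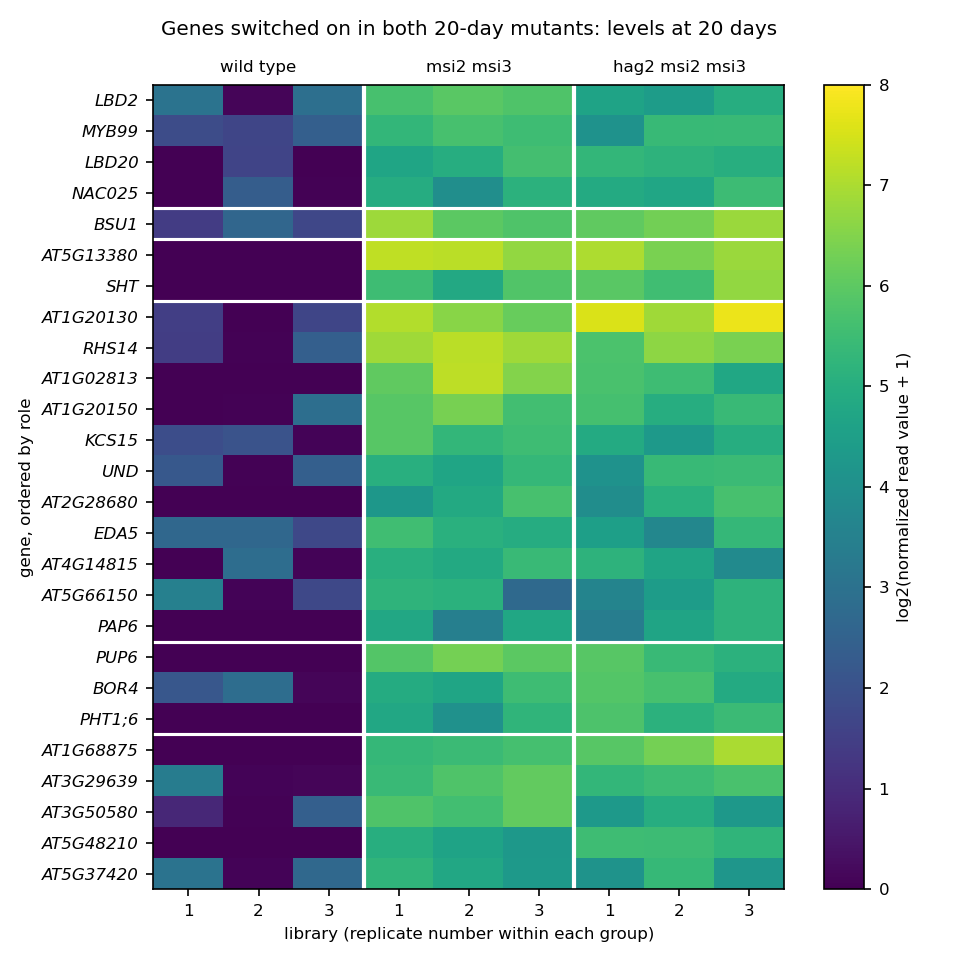
Levels of the 26 genes (rows, ordered by role with white lines between roles) in the 9 libraries of 20 days (columns), as log2(normalized read value + 1). The 3 wild type columns are dark in every row, and the 6 mutant columns are lighter; the 25.2 mean of AT5G66150 in msi2 msi3 hides 1 dark library at 5.61.

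Even in the mutants the genes were weakly expressed. Their mean over the 6 mutant libraries ran from 22.0 to 136 with a median of 38.9, while the median over those 23707 genes was 481. Per kilobase of annotated exon, the highest mutant levels belonged to AT1G02813 at 109 normalized read values per kb, AT1G68875 at 91.2, AT1G20130 at 71.2, RHS14 at 63.2, LBD2 at 62.0 and AT5G13380 at 58.5. The lowest was AT5G66150 at 7.16 per kb. Near the bounds, the highest wild type means inside the set were those of LBD2 (4.64), EDA5 (4.34) and AT5G37420 (4.29), and the nearest genes outside were SRO3 (5.43), sks14 (5.79) and AT1G28695 (5.87). The lowest mutant means inside were 21 for PAP6, 22.3 for AT5G66150 and 22.7 for AT3G50580. Just outside stood CUL2 at 19.9 and AT3G10580 at 19.1, both in hag2 msi2 msi3, and GRP17 at 19.5 in msi2 msi3.

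The set held 4 transcription factors. MYB99, a MYB factor of the tapetum, was at 2.63, 2.16 and 4.41 in the wild type, 38.5, 50.4 and 44.5 in msi2 msi3, and 16.1, 41.2 and 41.5 in hag2 msi2 msi3. NAC025, of the NAC family, was at 0, 4.17 and 0.0369 in the wild type, 30.1, 14.6 and 34.0 in msi2 msi3, and 28.7, 25.6 and 43.5 in hag2 msi2 msi3. For both, every mutant library lay above every wild type library. LBD2 and LBD20 belong to the LOB-domain family of plant transcription factors. LBD2 was at 7.24, 0.0708 and 6.62 in the wild type, and LBD20 at 0, 2.09 and 0.0185. In msi2 msi3 LBD2 reached 50.0, 60.6 and 54.2, above the 23.9, 20.3 and 30.4 of hag2 msi2 msi3 without overlap. LBD20 overlapped between the mutants, with means of 34.4 ± 11.7 and 34.9 ± 3.49 (SD, n = 3 libraries).

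BSU1, the 1 signalling gene, encodes a phosphatase with Kelch repeats that promotes brassinosteroid responses. Its 20-day values were 1.70, 5.26 and 2.29 in the wild type, 113, 62.1 and 54.0 in msi2 msi3, and 65.0, 77.6 and 111 in hag2 msi2 msi3. All 6 mutant libraries lay above 50, and both mutants overlapped each other over most of their range.

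The set held 2 enzymes that join small molecules, and both were listed at 0 in each 20-day wild type library. SHT, spermidine hydroxycinnamoyl transferase, makes the spermidine conjugates of the pollen coat in the tapetum. Its values were 44.7, 27.6 and 56.3 in msi2 msi3 and 61.2, 46.1 and 102 in hag2 msi2 msi3. AT5G13380 belongs to the GH3 family, whose studied members join amino acids to hormones and related acids. It was at 148, 143 and 102 in msi2 msi3 and 128, 83.2 and 109 in hag2 msi2 msi3, so the 2 genes overlapped between mutants.

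The largest role group was 11 genes for secreted, wall-related or lipid-building proteins. AT1G20130, a GDSL-motif lipase, had the highest mean of the set, with 135, 93.9 and 69.4 in msi2 msi3 and 184, 114 and 217 in hag2 msi2 msi3 against 1.79, 0.0209 and 2.20 in the wild type. RHS14, a pectate lyase first named for its expression in root hairs, was at 1.75, 0.0312 and 4.35 in the wild type, reached 52.4, 98.4 and 83.0 in hag2 msi2 msi3, and stood at 114, 142 and 115 in msi2 msi3. RHS14 was the higher in msi2 msi3 without overlap, whereas AT1G20130 overlapped between the mutants. The 20-day root markers were low in all groups: their summed level over 5 genes was 15.1 to 30.6 in the wild type, 7.28 to 8.72 in msi2 msi3 and 21.4 to 39.5 in hag2 msi2 msi3.

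AT1G02813, a DUF538 protein, had 0 in every wild type library and stood at 65.8, 147 and 90.9 in msi2 msi3 and 50.9, 44.5 and 26.4 in hag2 msi2 msi3. UND, also called UNDEAD, is an aspartic protease of tapetal cells and a known target of MYB80. It was at 3.59, 0.0413 and 4.39 in the wild type, 32.2, 24.9 and 38.8 in msi2 msi3, and 16.1, 41.2 and 42.5 in hag2 msi2 msi3. MYB80 itself, which is not in the set because its wild type mean was 10.4, had means of 33.0 ± 8.94 (msi2 msi3) and 24.1 ± 5.01 (hag2 msi2 msi3; SD, n = 3 libraries), above the wild type without overlap in both. KCS15, a 3-ketoacyl-CoA synthase of the family that lengthens fatty acids, was at 59.1, 37.9 and 44.5 in msi2 msi3, above the 28.8, 19.3 and 30.4 of hag2 msi2 msi3. The subtilisin-like protease AT1G20150 had means of 62.3 and 40.5, the cupin AT2G28680 31.7 and 32.2, the lipid-transfer protein AT4G14815 33.9 and 24.1, and the exostosin-family protein EDA5 36.0 and 24.5, for msi2 msi3 and then hag2 msi2 msi3. The purple acid phosphatase PAP6 was at 26.9, 9.95 and 26.2 in msi2 msi3 and 9.39, 24.4 and 35.4 in hag2 msi2 msi3, so that 1 library of each mutant lay under 10. The glycosyl hydrolase AT5G66150 was at 36.2, 33.7 and 5.61, and at 11.3, 20.2 and 35.4, in the same order.

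There were 3 transporter genes. PUP6, of the purine permease family, had 0 in every wild type library and stood at 57.3, 79.4 and 62.9 in msi2 msi3 and 59.6, 41.5 and 34.5 in hag2 msi2 msi3. PHT1;6, of the phosphate transporter family, was also at 0 in the wild type and reached 27.0, 15.5 and 36.9, and 52.9, 34.2 and 42.5. BOR4, a boron exporter known from roots, was at 3.55, 6.30 and 0.0903 in the wild type, 29.2, 24.9 and 44.7 in msi2 msi3, and 57.7, 49.8 and 28.4 in hag2 msi2 msi3. None of these 3 parted the mutants from each other.

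The other 5 genes have no described role. AT1G68875, an uncharacterised gene, was listed at 0 in the wild type, at 39.6, 42.8 and 49.4 in msi2 msi3 and at 60.1, 79.8 and 125 in hag2 msi2 msi3. AT5G48210, a prolamin-like protein, was at 0 in the wild type, at 31.1, 24.2 and 18.3 in msi2 msi3 and at 45.1, 43.5 and 36.5 in hag2 msi2 msi3. These were the 2 genes of the set that were higher in hag2 msi2 msi3 without overlap. AT3G50580 went the other way, with 55.1, 46.3 and 66.9 in msi2 msi3 and 19.1, 30.6 and 18.3 in hag2 msi2 msi3. AT3G29639 had means of 54.5 ± 12.6 and 44.5 ± 6.73, and AT5G37420 27.5 ± 8.51 and 24.5 ± 13.4 (SD, n = 3 libraries).

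Between the mutants, 19 of the 26 genes overlapped. AT1G02813, LBD2, AT3G50580, KCS15 and RHS14 were higher in msi2 msi3 without overlap. These are 5 genes, where 7.74% of the 23707 genes that reached 1 in 3 or more libraries did so. AT1G68875 and AT5G48210 were higher in hag2 msi2 msi3, 2 genes where 9.46% of those 23707 genes did so. By means, msi2 msi3 was higher for 14 genes and hag2 msi2 msi3 for 12, with a median ratio of msi2 msi3 to hag2 msi2 msi3 of 1.13. Since both means had to reach 20, these differences are described without a test.

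**Figure D2:**
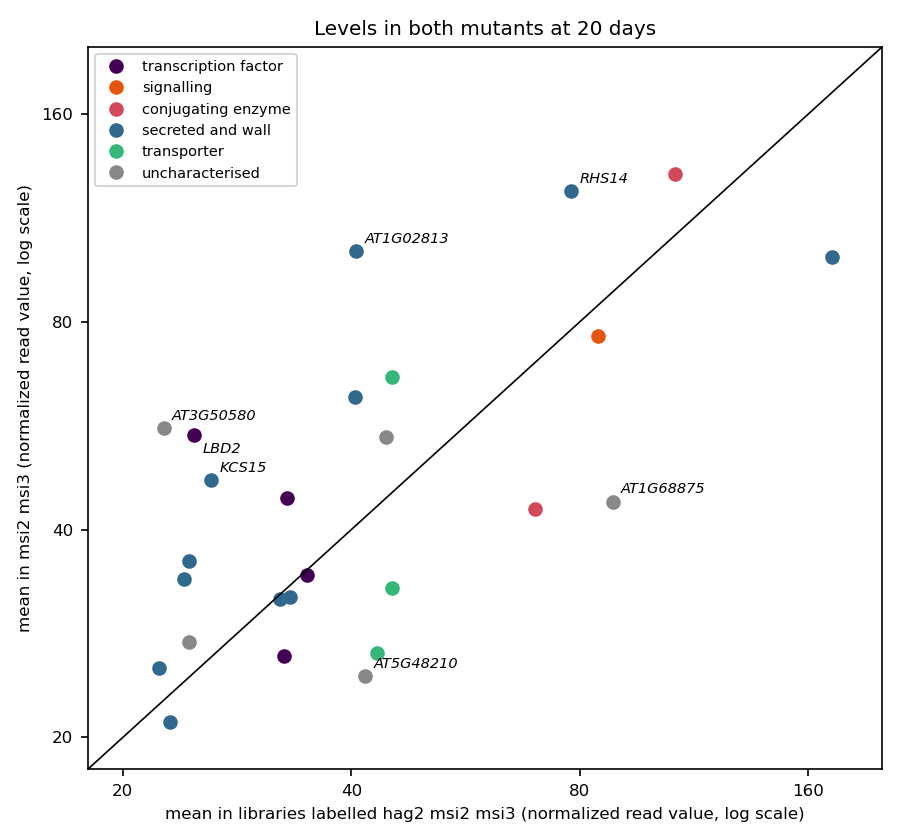
Mean level of each of the 26 genes at 20 days in the libraries labelled hag2 msi2 msi3 (horizontal axis) and in msi2 msi3 (vertical axis), both as normalized read values on log scales, coloured by role, with the line of equal levels. The 14 genes above the line were higher in msi2 msi3; the 7 genes whose mutant libraries did not overlap are named.

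Markers of flower organs and of the tapetum moved with the 26 genes at 20 days. The 10 tapetum genes left out of the set summed to 219 to 356 in the wild type, 2601 to 3020 in msi2 msi3 and 2129 to 2203 in hag2 msi2 msi3, and all 10 lay above the wild type without overlap in each mutant. Of 12 other tapetum and pollen wall genes, 10 did so in msi2 msi3 and 11 did in hag2 msi2 msi3, and their sum went from 1408 to 1933 in the wild type to 5713 to 6068 and 3541 to 3880. Of 16 flower meristem and organ identity genes, 11 and 12 did so, with sums of 982 to 1192, 2532 to 2652 and 2039 to 2149. CYP703A2, an enzyme of sporopollenin synthesis, was at 29.1 ± 16.5 in the wild type, had 174 ± 20.7 in hag2 msi2 msi3 and reached 300 ± 28.1 in msi2 msi3 (SD, n = 3 libraries). The petal and stamen identity gene AP3 was at 103 ± 21.5, 201 ± 39.3 and 287 ± 21.5 in the same order.

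The genes of pollen, ovules and maturing petals or stamens did not follow as a group. Of 12 pollen and pollen tube genes, 2 lay above the wild type without overlap in each mutant; the summed ranges were 625 to 778, 703 to 843 and 625 to 684. Of 8 genes of ovules and maturing petals or stamens, 1 lay above the wild type in each mutant, and MYB21, a factor of late stamen growth, was listed at 0 in all 9 libraries, as was the sperm histone gene MGH3. Of 4 meiosis genes, 0 lay above the wild type in msi2 msi3 and 2 did in hag2 msi2 msi3. Among the 23707 genes that reached 1 in 3 or more libraries, 13.7% and 12.3% lay above it in the same order. The tapetum and flower lists were picked with earlier results of these data known, so their direction is not independent. Their part in the levels of the 26 genes was not tested.

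**Figure D3:**
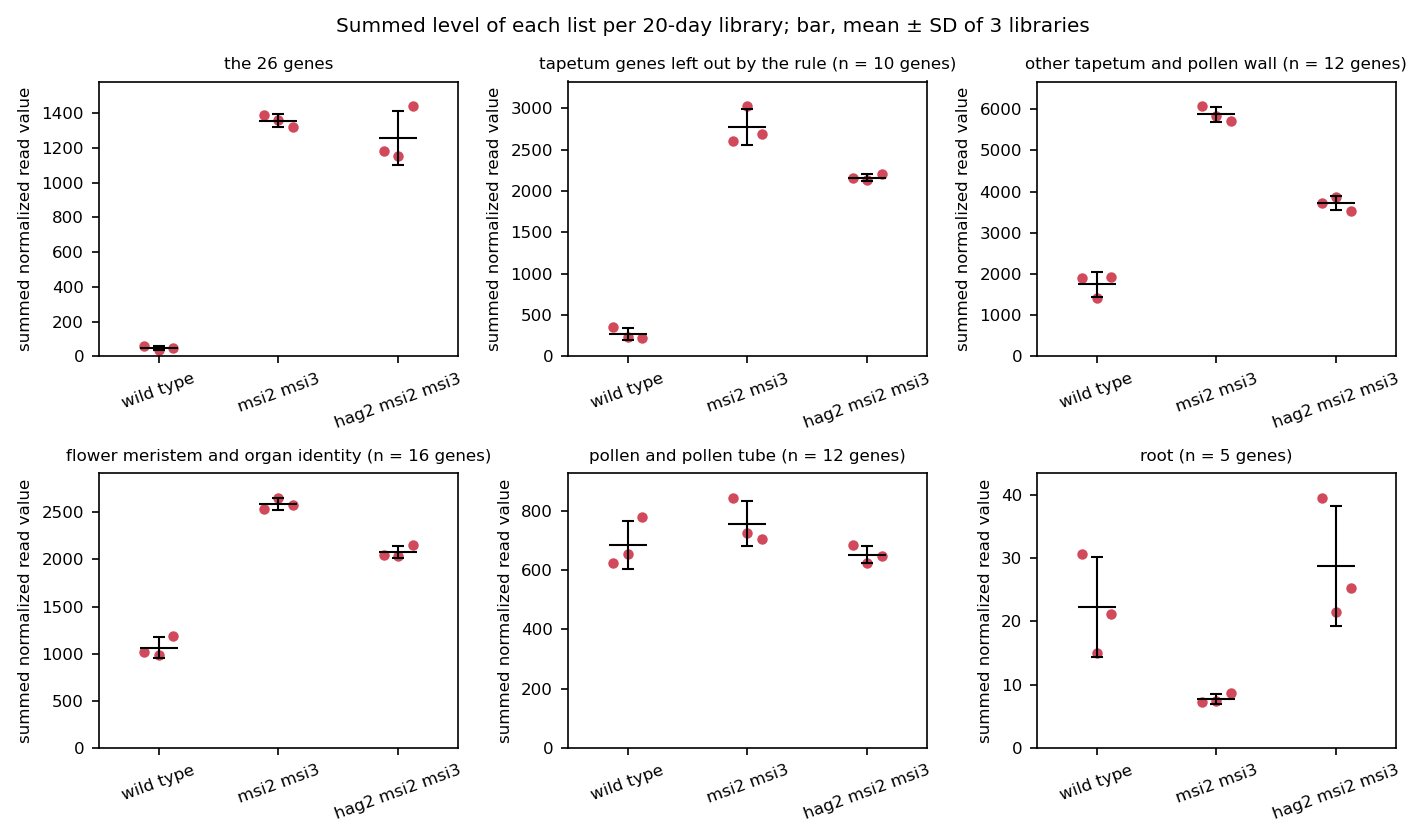
Summed normalized read values of the 26 genes and of 5 marker lists in each of the 9 libraries of 20 days (points), with the mean and SD of 3 libraries per group (bars); each panel has its own axis from 0. The wild type lies apart from both mutants for the 26 genes, where the choice of genes fixes this. It also does so for both tapetum lists and the flower identity genes. Of the 10 tapetum genes left out, 5 met the same bounds as the 26. The wild type range of the pollen genes overlaps that of each mutant.

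The reference annotation carries notes on where a gene was seen expressed, a source the choice did not use. For 13 of the 26 genes (50.0%) such a note names the petal differentiation and expansion stage, as it does for 4.03% of all genes in the table. The flower is named as a place for 11 (42.3%, against 1.76% of all genes), and anthesis for 6 (23.1%, against 3.82%). Any such note exists for 15 of the 26 and for 37.0% of all genes. Among all genes with any note, 10.9% name the petal stage, 4.75% the flower and 10.3% anthesis. A note placing the product in the endomembrane system, the route of secreted proteins, exists for 9 genes (34.6%). It exists for 10.5% of all genes and for 16.3% of those with any note on expression. The root or root hair is named for 2 (7.69%), for 2.05% of all genes and for 5.53% of those with any note on expression. The percentages of the set are out of all 26 genes. Beside genes with any note, the like counts are 13, 11, 6 and 2 of 15 for the petal stage, flower, anthesis and root. For the endomembrane note no like count is given. These shares describe the annotation and were not tested.

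Along the chromosomes, no 2 of the genes were neighbours; the closest, AT1G20130 and AT1G20150, lay 7.03 kb apart with 3 genes between them, and EDA5 and LBD20 lay 57.1 kb apart with 14 between. None lay within 100 kb of HAG2, MSI2, MSI3 or NASP, the nearest being SHT at 976 kb from MSI2. There were 5 genes that overlap a gene on the other strand: AT1G20150 by 592 bases with SK4, SHT by 508 with AT2G19060, KCS15 by 546 with AT3G52155, EDA5 by 25 with BGLU25 and AT5G37420 by 159 with AGL105. The strand of the libraries is not stated, so reads of such pairs cannot be told apart. SK4 had means of 306 in the wild type, 446 in msi2 msi3 and 361 for hag2 msi2 msi3, the same order as AT1G20150 at 2.16, 62.3 and 40.5, and AT3G52155 had 1575, 1433 and 1398 where KCS15 had 1.97, 47.2 and 26.1.

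The 250 bases before each annotated start were read from the RefSeq TAIR10.1 genome and searched on both strands for the G-box (CACGTG), the W-box (TTGACC or TTGACT), the GCC box (GCCGCC) and the CArG box, the site of MADS-domain floral factors. The W-box was found before 6 of the 26 genes (23.1%) and before 28.4% of all 27431 protein-coding genes with such a window. The G-box was before 2 (7.69%, against 6.49%), the CArG box before 1, RHS14 (3.85%, against 2.52%), and the GCC box before 0 (against 1.87%). None of these shares is much above that of all genes, and a match is a description of letters, not of a bound site. Windows are printed for BSU1, which stood above the wild type in hag2 msi2 msi3 at both ages, and for SHT, an enzyme of the tapetum at 0 in every library but those of the 20-day mutants. BSU1 (chr1:854410-859701, minus strand) has its window at chr1:859702-859951, which holds none of the 4 motifs. SHT (chr2:8260038-8261985, minus strand) has its window at chr2:8261986-8262235, where capitals mark a W-box 85 to 80 bases before the start. Both are written 5′ to 3′ on the gene's strand.
BSU1: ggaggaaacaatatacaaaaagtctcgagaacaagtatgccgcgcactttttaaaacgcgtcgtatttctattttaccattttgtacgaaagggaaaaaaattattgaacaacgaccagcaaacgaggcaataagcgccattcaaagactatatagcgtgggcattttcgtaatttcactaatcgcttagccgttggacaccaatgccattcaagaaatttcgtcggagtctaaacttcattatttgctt
SHT: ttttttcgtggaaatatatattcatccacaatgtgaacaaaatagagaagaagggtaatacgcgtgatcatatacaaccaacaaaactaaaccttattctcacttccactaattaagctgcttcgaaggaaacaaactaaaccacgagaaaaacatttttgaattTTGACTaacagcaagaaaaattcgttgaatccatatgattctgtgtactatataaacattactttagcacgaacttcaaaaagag

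At 12 days most of the 26 genes had low values in every genotype. In 12-day wild type seedlings 13 genes had a mean below 1 and 21 a mean below 5, where 35.7% of all genes had a mean below 5. In all 5 genotypes 18 genes stayed under a mean of 5. LBD2, AT1G68875, SHT, UND, AT4G14815 and PHT1;6 were listed at 0 in all 15 libraries, 6 genes where 17.0% of all genes were. The tapetum enzymes SHT and UND are among these, and MYB99 of the tapetum had group means of 0.319 to 1.66. The 2 tables were normalized separately, so levels are not compared across ages by a test.

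Only 5 genes had a 12-day wild type mean of at least 5. RHS14 was at 129, 171 and 151, EDA5 at 57.4, 86.0 and 64.4, and BOR4 at 39.3, 45.8 and 49.6. AT1G02813 was at 5.05, 8.52 and 9.92, and BSU1 at 5.04, 6.38 and 4.95. Of these, RHS14 and BOR4 are known from roots. The summed level of the 5 root markers was 1504 to 1645 in the 12-day wild type and 15.1 to 30.6 in that of 20 days. Their part in the levels of RHS14 and BOR4 at either age was not tested.

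**Figure D4:**
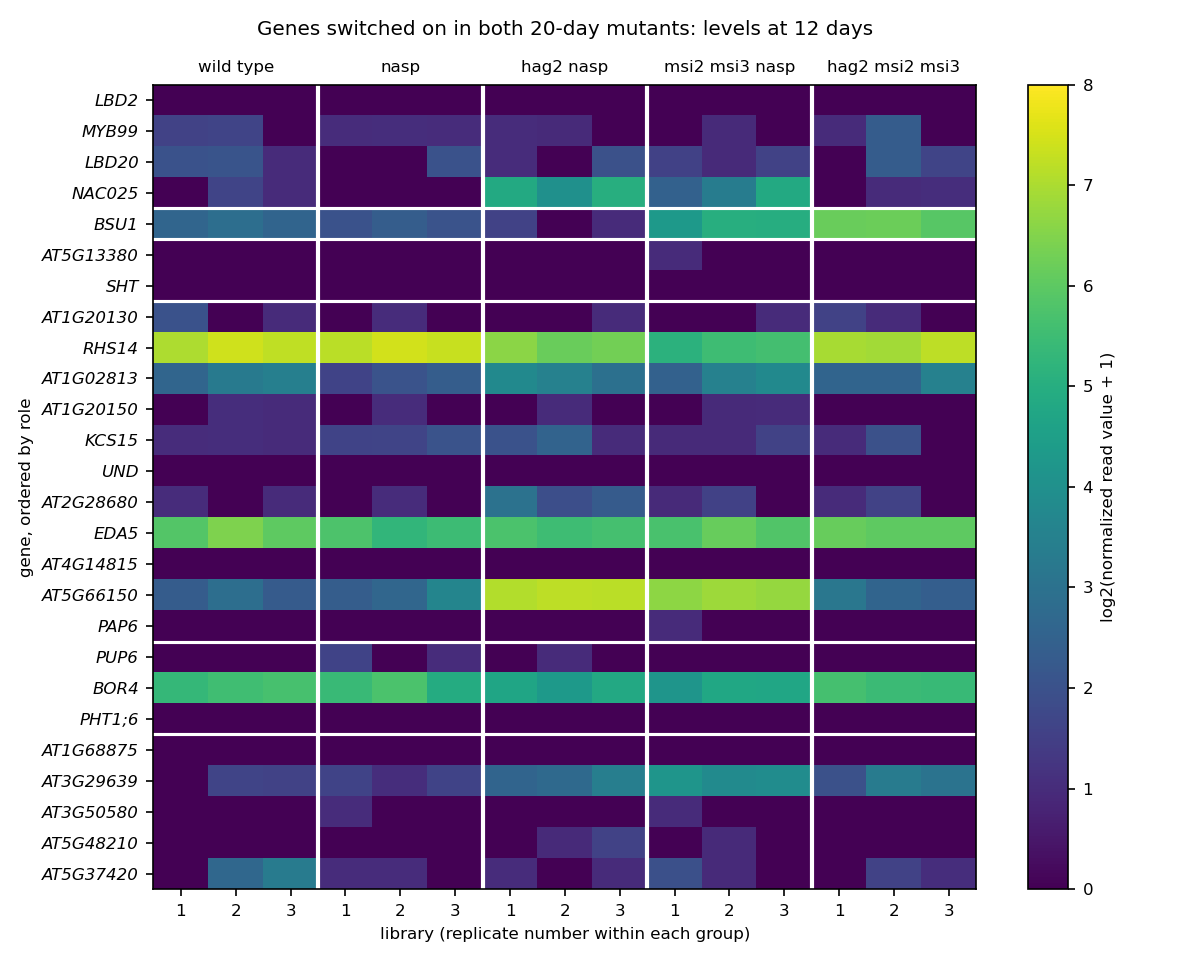
Levels of the 26 genes (rows, in the same order as at 20 days) in the 15 libraries of 12 days (columns), as log2(normalized read value + 1). Most rows are dark throughout; RHS14, EDA5 and BOR4 are light in every genotype, BSU1 is light in msi2 msi3 nasp and hag2 msi2 msi3, and NAC025 and AT5G66150 in hag2 nasp and msi2 msi3 nasp.

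For the tests, 14 of the 26 genes reached 1 in 3 or more of the 15 libraries; the other 12 were too low to be tested. The 4 comparisons use the same wild type libraries and are given side by side. Calls are by limma on log2(value + 1) with Benjamini-Hochberg adjustment over all 24305 genes tested, below 0.05, and fold changes on that scale understate those of low genes.

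BSU1 was raised in 12-day hag2 msi2 msi3 seedlings. Its values there were 71.3, 73.4 and 59.0, against 5.04, 6.38 and 4.95 in the wild type, a log2 fold change of 3.42 ± 0.35 (limma adjusted p = 1.62e-05). AT3G29639 also passed, with 2.95, 8.94 and 7.33 against 0.00246, 2.11 and 1.98, a log2 change of 1.71 ± 0.45 (limma adjusted p = 0.0410). Of the 14 genes tested, these were the 2 called in hag2 msi2 msi3, and 0 fell. Of all genes tested, 4.04% were called, 2.08% as risen and 1.96% as fallen. The call of AT3G29639 ended without wild type replicate 1 or 2 or hag2 msi2 msi3 replicate 2 or 3 (limma adjusted p of 0.0516 to 0.165), and under other settings given with the processing, while that of BSU1 held in each of them. Of the 5 salicylic acid defence genes, 4 rose in these libraries too, with summed levels of 666 to 901 against 394 to 576 in the wild type; their part was not tested. At 12 days MSI2 stands at 92.9% of the wild type in these libraries, while HAG2 and MSI3 stand at 17.9% and 16.2% of the wild type.

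BSU1 was also raised in msi2 msi3 nasp, at 18.8, 31.2 and 30.7 (log2 change 2.08 ± 0.35, limma adjusted p = 4.05e-05). In hag2 nasp it was lowered, to 2.01, 0 and 0.977 (log2 change -1.83 ± 0.35, limma adjusted p = 0.000164). In nasp it was at 3.05, 4.16 and 3.13, which did not pass (log2 change -0.54 ± 0.35, limma adjusted p = 0.502). The 12-day order of means was thus hag2 msi2 msi3 (67.9), msi2 msi3 nasp (26.9), wild type (5.45), nasp (3.45) and hag2 nasp (0.994), and no neighbours in that order overlapped. Added after the values were seen, the direct comparison of msi2 msi3 nasp with hag2 nasp gave a log2 difference of 3.91 ± 0.35 (limma adjusted p = 4.02e-06), and that of hag2 msi2 msi3 with nasp 3.96 ± 0.35 (limma adjusted p = 6.00e-07). In these, 2 (BSU1 and RHS14) and 1 (BSU1) of the 14 genes tested were called, where 6.33% and 10.7% of all genes tested were.

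The neighbours of BSU1 did not move with it in 12-day hag2 msi2 msi3. The gene on one side, AT1G03440, had a log2 change of -0.20 ± 0.09 (limma adjusted p = 0.236), and that on the other, AT1G03457, one of 0.12 ± 0.12 (limma adjusted p = 0.687). In msi2 msi3 nasp these genes fell, by 0.92 and 0.72 on the log2 scale (limma adjusted p = 2.59e-08 and 3.95e-05), opposite to BSU1. In hag2 nasp, where BSU1 was lowered, they fell too, in the same direction as BSU1. Their log2 changes there were -0.87 ± 0.09 and -0.82 ± 0.12 (limma adjusted p = 5.68e-08 and 8.77e-06). How reads that match BSU1 and its close relatives were counted is not given in the sources used here.

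In hag2 nasp, 8 of the 26 genes were called, 4 risen and 4 fallen, and in msi2 msi3 nasp 6 were, 4 risen and 2 fallen. These comparisons called 66.3% (33.1% risen, 33.2% fallen) and 66.8% (33.6% risen, 33.3% fallen) of all genes tested; of the 26, only 14 were tested, so the counts of 8 and 6 are out of 14. The glycosyl hydrolase AT5G66150 moved most. It was at 4.03, 6.35 and 3.96 in the wild type, 133, 146 and 143 in hag2 nasp and 99.5, 113 and 106 in msi2 msi3 nasp. The log2 changes were 4.64 ± 0.30 and 4.24 ± 0.30 (limma adjusted p = 2.12e-10 and 7.29e-10), and nasp and hag2 msi2 msi3, at 6.89 ± 3.91 and 5.71 ± 1.96 (SD, n = 3 libraries), overlapped the wild type.

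NAC025 behaved alike. It was at 28.1, 15 and 31.4 in hag2 nasp and 4.55, 9.31 and 27.8 in msi2 msi3 nasp, against 0.00185, 2.10 and 0.990 in the wild type, with log2 changes of 3.75 ± 0.55 and 2.69 ± 0.55 (limma adjusted p = 7.89e-06 and 0.000282). All 6 libraries lay above the wild type, although those of msi2 msi3 nasp spread widely. AT3G29639 rose to 5.02, 5.69 and 9.82 in hag2 nasp and 17.1, 13.2 and 13.9 in msi2 msi3 nasp, with log2 changes of 1.85 ± 0.45 and 2.89 ± 0.45 (limma adjusted p = 0.00152 and 1.81e-05). The cupin AT2G28680 rose in hag2 nasp, to 7.02, 2.82 and 3.91 (log2 change 1.74 ± 0.53, limma adjusted p = 0.00807), and was at 0.944, 1.91 and 0 in msi2 msi3 nasp. The 5 salicylic acid defence genes all rose in both genotypes, with summed levels of 394 to 576 for the wild type, 7656 to 11921 for hag2 nasp and 11981 to 14743 for msi2 msi3 nasp. Of the 16 flower identity genes, 11 were tested and 5 rose in each. Of 6 seed genes, 5 were tested and 4 rose in each, with sums of 12.8 to 61.3 for the wild type, 123 to 446 for hag2 nasp and 210.5 to 1441 for msi2 msi3 nasp. All 4 meiosis genes rose in hag2 nasp and 3 of them in msi2 msi3 nasp. All 4 leaf genes fell in both, from sums of 623123 to 656337 in the wild type to 279020 to 293272 and 270305 to 325112. The part of these lists in the changes of the 26 genes was not tested.

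RHS14 and BOR4, known from roots, fell in both genotypes. RHS14 was at 97.3, 71.3 and 77.3 in hag2 nasp and 34.0, 44.4 and 47.6 in msi2 msi3 nasp, below the wild type without overlap, with log2 changes of -0.87 ± 0.16 and -1.82 ± 0.16 (limma adjusted p = 0.000103 and 1.25e-08). RHS14 was lower in msi2 msi3 nasp than in hag2 nasp by a log2 difference of -0.95 ± 0.16 (limma adjusted p = 0.00139, added after the values were seen). BOR4 was at 25.1, 18.9 and 27.4 and at 16.9, 26.5 and 25.8, with log2 changes of -0.90 ± 0.23 and -0.95 ± 0.23 (limma adjusted p = 0.00256 and 0.00157). All 5 root markers fell in both genotypes, to summed levels of 499 to 575 and 365 to 402, and stood at 1509 to 1928 in hag2 msi2 msi3, where RHS14 was at 123, 118 and 146. Their part in the fall of RHS14 and BOR4 was not tested. EDA5 was at 52.2, 44.7 and 48.9 in hag2 nasp (log2 change -0.48 ± 0.18, limma adjusted p = 0.0264), a call that ended without wild type replicate 2 or hag2 nasp replicate 2 or 3 (limma adjusted p of 0.0502 to 0.156) and at 0.153 under quantile normalization.

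In nasp, limma called 0 of the 14 genes tested, where 3.89% of all genes tested were called. At an unadjusted p below 0.05 there were 2, AT1G02813 (log2 change -1.09 ± 0.40) and EDA5 (-0.60 ± 0.18), and the lowest limma adjusted p was 0.0793. With voom weights 0 were called too.

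**Figure D5:**
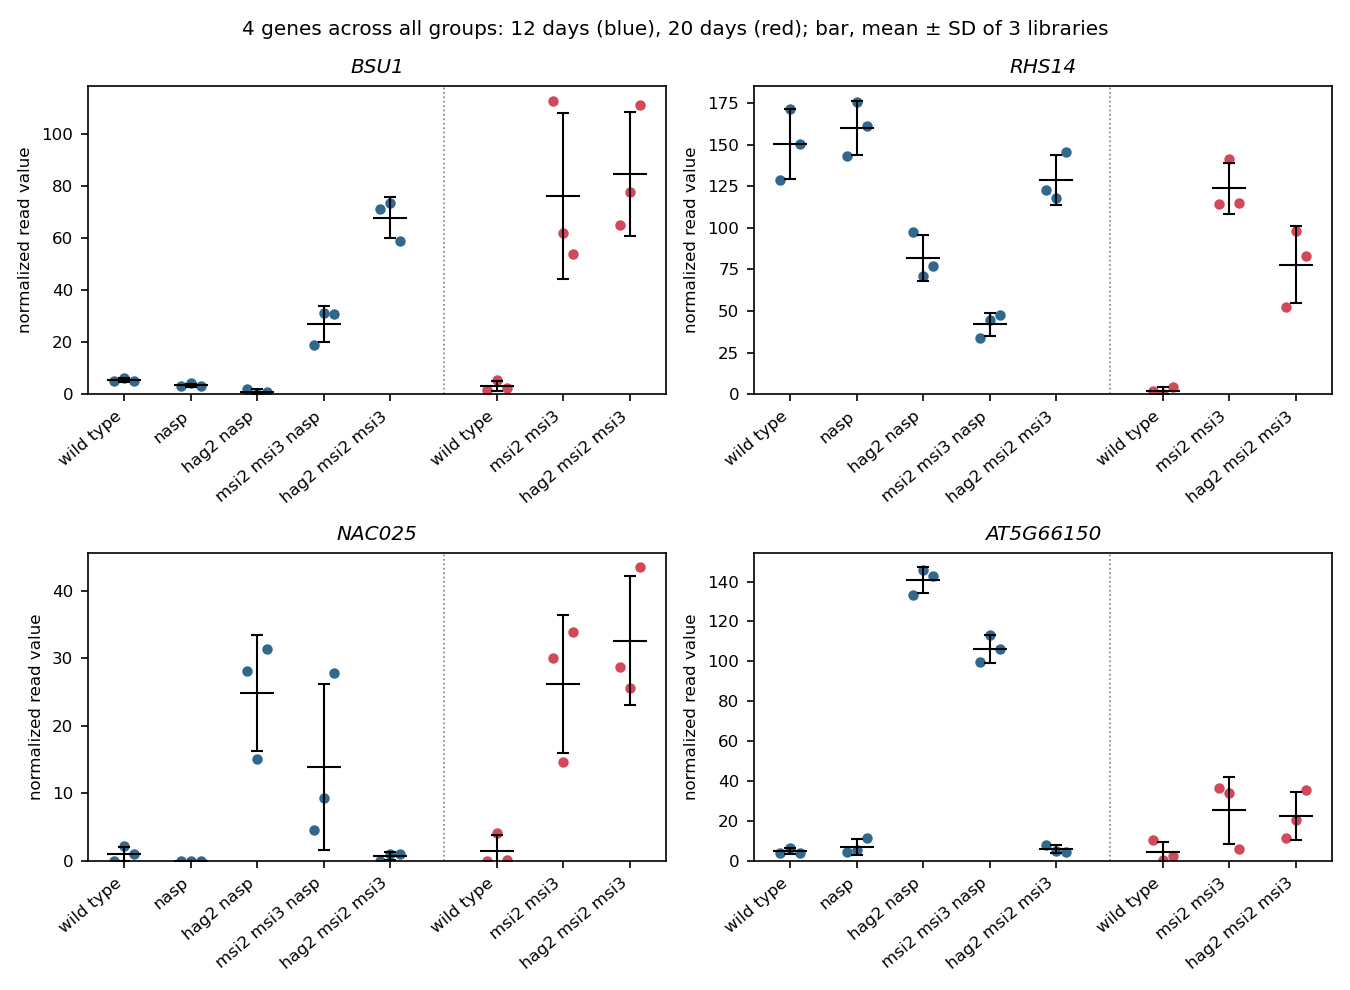
Normalized read values of BSU1, RHS14, NAC025 and AT5G66150 in each library of the 5 groups of 12 days (blue points, left of the dotted line) and the 3 groups of 20 days (red points), with the mean and SD of 3 libraries (bars). BSU1 is above 50 in hag2 msi2 msi3 at both ages, RHS14 is high at 12 days in the wild type and near 0 in it at 20 days, and NAC025 and AT5G66150 are high at 12 days in both hag2 nasp and msi2 msi3 nasp.

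The libraries labelled hag2 msi2 msi3 are the mutant present at both ages. Of the 26 genes, all of which had a mean of at least 20 there at 20 days, 4 had one at 12 days (RHS14, BSU1, EDA5 and BOR4), and 3 of these had one in the 12-day wild type as well. BSU1 was the exception, with means of 67.9 ± 7.78 at 12 days and 84.6 ± 24 at 20 days against 5.45 ± 0.798 and 3.08 ± 1.91 in the wild type (SD, n = 3 libraries). The other 22 genes had 12-day means in hag2 msi2 msi3 of 0 to 6.77.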

How the data were processed

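Both deposited tables give signal per gene, meaning read values that the authors normalized, with decimals, made with bcl2fastq, HISAT2, edgeR and the TAIR10 build per the submitters' processing notes, without versions; the read counter, annotation and treatment of reads matching several copies are not given in the sources used here. At 20 days, values within 0.2 of 2 (5264) outnumber those near 1 (3146). The same holds for 4 (2024) over 3 (1249), 6 (790) over 5 (584) and 8 (468) over 7 (434). At 12 days the numbers fall at each step, from 17356 near 1 to 1355 near 8. Whether both reads of a pair were counted at 20 days is not given and was not tested. A 20-day value may thus stand for fewer fragments than reads, and depth is unknown. At 20 days, values at the rounding floor (72771 of them) were set to 0. All 32548 gene IDs matched a locus tag of RefSeq TAIR10.1, which gave names, positions and sequences. That build's name differs from the TAIR10 of the notes, and the files hold no coordinates.

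A count model had been planned, with limma in its place if the tables held no counts, and this was used: limma 3.58.1 in R 4.3.3 (lmFit, eBayes with trend) on log2(value + 1), all 15 libraries of 12 days in 1 fit, genes of at least 1 in at least 3 libraries (24305). Fold changes are ± the standard error of the fit. The promoter window was planned as 300 bases of a table and is 250 bases read from the genome. The script was tested on simulated data.

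The 26 genes, the marker lists and the tests were chosen with earlier results of these data known, and the role groups after their values were seen. The rule for named genes took the highest 20-day levels, the largest changes at 12 days, the highest 12-day wild type levels, those nearest each bound and the most unlike between mutants; the others are named because the set is small. Alternatives were other bounds, scaling, pseudocount, filter, fit and leaving out each library.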

Additional observations from a re-analysis of the deposited data

Results flagged for a closer look

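AT1G20150, the subtilisin-like protease gene, was listed at 0 in all 3 libraries labelled hag2 msi2 msi3 at 12 days and at 0.00124, 1.06 and 0.991 in the wild type, a difference of -0.684 in mean normalized read value, while at 20 days every library of that label lay above the wild type. AT1G20150 was flagged because the libraries lay apart in opposite directions at the 2 ages. At 12 days this rests on a wild type value of 0.00124 against 0, so no direction is read there. The difference between ages was not tested, and its 20-day side is fixed by the choice of genes. At 12 days the gene was too low to be tested.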

How the results depend on the processing

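The number of genes found depends on the bounds. It was 8 when every library had to pass its bound (AT1G02813, AT1G20130, AT1G68875, SHT, LBD20, PUP6, RHS14 and AT5G13380), 8 at bounds of 2.5 and 40, and 53 at bounds of 10 and 20. It was 24 to 31 when 1 library was left out, with 23 to 26 of the 26 genes found again, 26 after scaling to equal totals and 31 with the tapetum genes kept.

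In 12-day hag2 msi2 msi3 the count called, and the count risen, was 1 in place of 2 under quantile normalization, in a fit of only the 2 groups compared and with voom weights (chosen after seeing the data), and 1 to 2 when 1 library was left out. The gene lost was AT3G29639 each time (limma adjusted p = 0.0509, 0.109 and 0.0634 in the first 3). Without 1 library the counts called were 7 to 9 in hag2 nasp, 6 to 7 in msi2 msi3 nasp and 0 to 0 in nasp. Of 266 alternative values for 19 gene results, 255 kept direction and call, 11 kept the direction and lost the call (AT3G29639 in hag2 msi2 msi3 and EDA5 in hag2 nasp), and 0 reversed.

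Same-numbered libraries of 12 days did not deviate together with the wild type (correlations of -0.0557 to 0.0625), so no pairing with it by number was seen. Mutant groups were not set against each other in this way, and 20-day libraries were not examined, so a shared harvest or batch is not excluded. With the replicate block the counts called did not move: 0 for nasp, 8 for hag2 nasp, 6 for msi2 msi3 nasp, and 2 for libraries labelled hag2 msi2 msi3. No 20-day value was tested, and with unknown depth a value listed at 0 gives no upper limit.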
